A study of Mus musculus with 6 samples.

Results

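Erythroid lineage genes were examined in long-term chronic myeloid leukaemia (LT-CML) stem cells of mice with and without Gdpd3, a lysophospholipase D enzyme. The 9 genes were chosen by name as genes that work in red cell formation, and all 9 were found among the 36976 genes of the deposited expression table. They were the adult globins Hba-a1 and Hbb-b1, the transcription factors Klf1 and Gata1, the haem synthesis enzyme Alas2, the carbonic anhydrases Car1 and Car2, the transferrin receptor Tfrc and the membrane skeleton gene Epb4.2. RNA-Seq was carried out on 6 libraries, Gdpd3+/+ replicates 1 to 3 and Gdpd3-/- replicates 5 to 7. Each value is an FPKM, the number of sequenced fragments per kilobase of gene, scaled to the size of its library.

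All mice were C57BL/6 and carried both transgenes of the tet-CML model, SCL-tTA and TRE-BCR-ABL1, so the Gdpd3+/+ libraries are leukaemic controls and not healthy cells. In this model a transactivator under control of the SCL gene switches on BCR-ABL1 when doxycycline is withdrawn, and marrow was taken 5 weeks after induction. The Gdpd3-/- allele was made by Cas9 genome editing. Cells were sorted as CD150+ CD48- CD135- Lineage- Sca-1+ cKit+, and the lineage antibodies included TER119, so that cells bearing this late red cell antigen were gated out. Marrow was pooled from 34 Gdpd3+/+ mice (22 males and 12 females) and 10 Gdpd3-/- mice (5 males and 5 females). The study describes the libraries of a group as biologically independent samples, and how the pooled mice were divided among them is not given in the sources used here.

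Red cells arise from megakaryocyte and erythroid progenitors under the control of Gata1 and Klf1. Gata2 is expressed in stem and progenitor cells, and Gata1 takes its place as erythroid cells mature. Gata1 binds GATA sequences and Klf1 binds CACCC-type sequences in the promoters of globin, haem synthesis and membrane genes. Erythroblasts take up transferrin-bound iron, build it into haem and pair alpha with beta globin chains. Carbonic anhydrases interconvert carbon dioxide and bicarbonate, and a spectrin-based skeleton is anchored under the membrane. Some of these transcripts are also detected at low levels in stem and progenitor cells before erythroid commitment.

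The promoters of 5 of these genes are shown, those of the factors Gata1 and Klf1 themselves and of the 3 globin and haem synthesis genes, because GATA-type and CACCC-type letters are the sequences that the 2 factors can bind. Each line is the 250 bases before a RefSeq transcription start in GRCm38.p6, written 5′ to 3′ on the strand of the gene. Capitals mark GATA-type letters, which were taken as AGATAA, as the variant TGATAA, as the variant AGATAG or as the variant TGATAG, and letters of the CACCC type, which were taken as CACACCC or as the shorter CCACCC. Both strands were searched, so that a match on the other strand appears as its reverse complement. The RefSeq table names the gene of Hbb-b1 Hbb-bs and that of Epb4.2 Epb42.
Hba-a1: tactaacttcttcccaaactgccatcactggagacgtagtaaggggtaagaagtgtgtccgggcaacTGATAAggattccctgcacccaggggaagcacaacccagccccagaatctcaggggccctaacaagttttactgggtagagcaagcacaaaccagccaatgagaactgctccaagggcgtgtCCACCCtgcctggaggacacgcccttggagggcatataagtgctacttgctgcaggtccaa
Hbb-bs: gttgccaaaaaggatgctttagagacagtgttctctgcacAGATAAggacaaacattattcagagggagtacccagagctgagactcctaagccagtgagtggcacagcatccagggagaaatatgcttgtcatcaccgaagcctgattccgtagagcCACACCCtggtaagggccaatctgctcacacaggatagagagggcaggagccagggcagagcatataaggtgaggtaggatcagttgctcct
Klf1: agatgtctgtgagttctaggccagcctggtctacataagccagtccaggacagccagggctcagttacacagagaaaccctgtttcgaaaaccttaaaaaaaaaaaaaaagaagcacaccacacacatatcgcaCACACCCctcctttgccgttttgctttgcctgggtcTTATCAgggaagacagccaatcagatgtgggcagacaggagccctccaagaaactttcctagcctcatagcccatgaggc
Gata1: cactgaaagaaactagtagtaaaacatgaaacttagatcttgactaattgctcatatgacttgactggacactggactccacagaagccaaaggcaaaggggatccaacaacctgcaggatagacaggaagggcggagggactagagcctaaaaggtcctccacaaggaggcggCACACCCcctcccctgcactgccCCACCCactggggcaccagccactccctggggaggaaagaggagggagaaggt
Alas2: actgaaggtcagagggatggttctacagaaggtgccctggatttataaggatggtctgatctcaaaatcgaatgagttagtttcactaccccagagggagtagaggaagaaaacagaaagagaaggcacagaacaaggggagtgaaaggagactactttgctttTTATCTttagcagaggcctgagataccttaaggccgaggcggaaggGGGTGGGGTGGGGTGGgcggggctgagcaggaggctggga

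These windows lie at chr11:32283422-32283671 (plus strand) for Hba-a1, chr7:103827929-103828178 (minus strand) for Hbb-bs, chr8:84901732-84901981 (plus strand) for Klf1, chrX:7967911-7968160 (minus strand) for Gata1 and chrX:150547167-150547416 (plus strand) for Alas2. The Hba-a1 window held TGATAA from 183 to 178 bases upstream and CCACCC from 61 to 56 bases upstream. The Hbb-bs window held AGATAA from 210 to 205 bases upstream and CACACCC from 92 to 86 bases upstream. In Klf1 itself, CACACCC stood 116 to 110 bases upstream and TGATAA, on the other strand, 80 to 75 bases upstream. Alas2 had AGATAA on the other strand at 86 to 81 bases, next to 3 overlapping CCACCC matches between 40 and 25 bases. The Gata1 window contained CACACCC and CCACCC and none of the GATA-type letters.

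Of the 9 genes, 7 matched the promoter table, with 8 windows because Tfrc has 2 listed starts. Car1 and Car2 were not matched. GATA-type letters were in 5 of the 8 windows and in 26.54% of all 32851 promoters of the same length. CACCC-type letters were in 6 of the 8 windows and in 32.66% of all promoters. Both kinds were in 4 windows, those of Hba-a1, Hbb-bs, Klf1 and Alas2, against 6.953% of all promoters. These matches describe the letters only, and no binding was measured here.

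The libraries differed in depth and in other respects that touch the erythroid genes. Depths recovered from the FPKM values were 49753146 to 62762437 fragments in Gdpd3+/+ and 21334716 to 36421439 in Gdpd3-/-, the smallest being Gdpd3-/- replicate 5. Gdpd3 itself, the targeted gene, was at 7.30, 3.29 and 2.95 FPKM in Gdpd3+/+ and at 0.110, 0.0129 and 0.681 FPKM in Gdpd3-/- replicates 5, 6 and 7. The labels and the gene thus went together, with the highest knockout value in replicate 7. In the limma fit described below its log2 fold change was -4.00 ± 0.77 (SE, limma adjusted p = 0.0588). The targeted gene itself was therefore not called at an adjusted p under 0.05. All 12 stem cell markers listed (among them Kit, Slamf1 and Procr) passed the filter on low values, and their summed level was 808 to 880 FPKM in Gdpd3+/+ and 925 to 1141 FPKM in Gdpd3-/-. Not all of them rose, and 4 of the 12 had a log2 fold change below 0, among them Kit (-0.13) and Slamf1 (-0.38). Cd34 had the largest rise in mean, from 109 to 201 FPKM. The median log2 fold change of the 12 was 0.15. Skeletal muscle transcripts, which do not belong to marrow stem cells, summed to 985 to 1450 FPKM in Gdpd3+/+ and to 12594, 18095 and 2408 FPKM in Gdpd3-/- replicates 5, 6 and 7. The median fold change of all 24689 genes tested was 0.24 on the log2 scale rather than 0, so a gene at 0 lay below the middle of the table.

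None of the 9 erythroid genes passed the test of a genotype difference, although 8 of the 9 had a lower fitted level in Gdpd3-/-. Of the 9, 7 were at their lowest in 1 library, Gdpd3-/- replicate 5, while Gdpd3-/- replicate 7 stood above the Gdpd3+/+ mean for 6. The exception was Car2, whose 3 Gdpd3-/- values all lay above the 3 Gdpd3+/+ values. By limma on log2(FPKM + 0.1) with Benjamini-Hochberg adjustment over all genes tested, the adjusted p of the 9 genes ran from 0.206 to 0.633, and 1 gene, Car2, had an unadjusted p under 0.05. Of all genes tested 1.71% were called at an adjusted p under 0.05 (1.09% higher and 0.616% lower in Gdpd3-/-) and 22.2% had an unadjusted p under 0.05. Voom on the recovered fragments called 0 of the 9 as well.

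The median log2 fold change of the 9 genes was -0.58, and 34.9% of all genes tested were below 0. Relative to the median of all genes, that of the erythroid genes was -0.82 on the log2 scale, and it was -0.85 after TMM scaling and -0.66 after quantile normalization. Without Gdpd3-/- replicate 5 the difference shrank to -0.34, and the median of the 9 genes themselves was -0.13. In every one of the 9 genes the SD was larger in Gdpd3-/- than in Gdpd3+/+. The share of all genes with a larger SD in Gdpd3-/- was not counted, so this cannot be read as particular to the 9. Groups did not overlap for 3 genes, Gata1 and Tfrc lower and Car2 higher in Gdpd3-/-, against 31.8% of all genes in either direction, 8.27% in the lower and 23.5% in the higher direction.

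**Figure D1:**
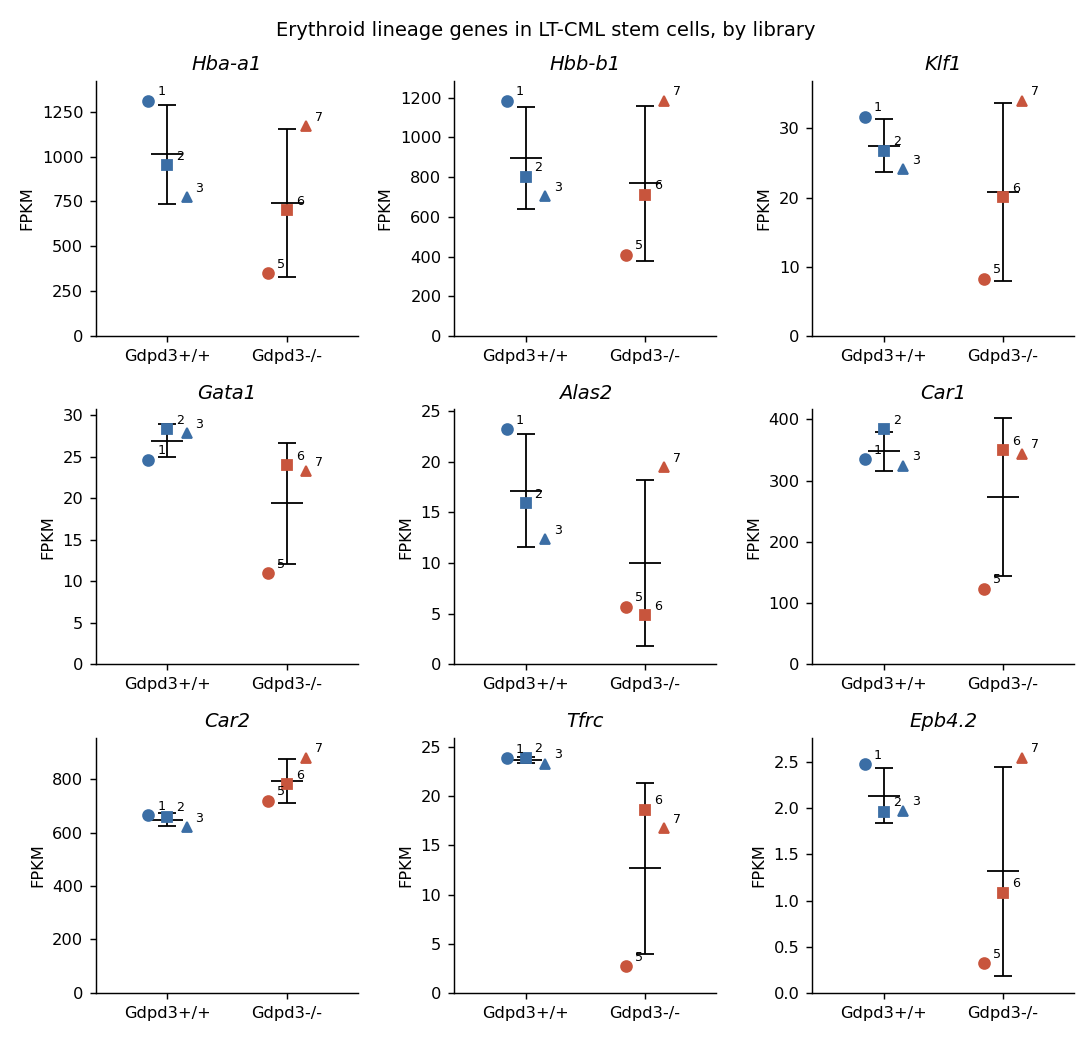
FPKM (vertical axes, linear from 0) of the 9 erythroid genes in each library, with the replicate number beside each point, Gdpd3+/+ in blue and Gdpd3-/- in red, and horizontal marks and bars for the group mean and SD (n = 3). Replicate 5 is the lowest point in 7 panels, replicate 7 is the highest in those of Klf1, Car2 and Epb4.2, and Car2 is the single panel in which all red points lie above all blue ones.

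Klf1 activates beta globin and many other red cell genes. Klf1 (ENSMUSG00000054191.7, mm9 chr8:87425827-87429194, plus strand, 3 exon blocks) was at 31.7, 26.8 and 24.1 FPKM in Gdpd3+/+ and at 8.28, 20.1 and 34.0 FPKM in Gdpd3-/- replicates 5, 6 and 7. The groups overlapped, with the lowest and the highest of all 6 values both in Gdpd3-/-. The means were 27.5 ± 3.84 and 20.8 ± 12.9 FPKM (SD, n = 3 each), and the log2 fold change was -0.61 ± 0.48 (SE; limma adjusted p = 0.482). Without replicate 5 it was -0.06.

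Gata1, the zinc finger factor required for erythroid and megakaryocyte maturation, varied less. Gata1 (ENSMUSG00000031162.8, mm9 chrX:7536386-7555197, minus strand, 10 exon blocks) was at 24.7, 28.3 and 27.9 FPKM in Gdpd3+/+ and at 11.0, 23.97 and 23.3 FPKM in Gdpd3-/-. All 3 Gdpd3-/- values lay below the lowest Gdpd3+/+ value, 2 of them narrowly. The log2 fold change was -0.55 ± 0.30 (SE; 95% interval -1.27 to 0.17; limma adjusted p = 0.326), and the exact two-sided permutation test of the mean FPKM gave p = 0.1, the smallest that 3 libraries against 3 allow. Without replicate 5 the log2 fold change of Gata1 was -0.19.

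The related factor Gata2, which stem cells use, did not pass the test either. Gata2 was at 44.3, 51.8 and 48.7 FPKM in Gdpd3+/+ and at 59.8, 54.3 and 59.3 FPKM in Gdpd3-/-, a log2 fold change of 0.26 (limma adjusted p = 0.195), close to the median of all genes at 0.24. Within each library the ratio of Gata1 to Gata2 was 0.557, 0.547 and 0.573 in Gdpd3+/+ and 0.184, 0.441 and 0.393 in Gdpd3-/-. This ratio does not depend on library scaling, and the groups did not overlap (exact permutation p = 0.1 with all 6 libraries). They did not overlap without replicate 5 either, a case for which no permutation p was computed. The ratio of Klf1 to Gata1 overlapped between groups, at 0.865 to 1.28 in Gdpd3+/+ and at 0.753 to 1.46 in Gdpd3-/-. Ratios were examined after the values of single genes had been seen, and 8 were computed. Only those of Klf1 to Gata1 and Alas2 to Alas1 overlapped between groups. The ratio of Hba-a1 to Hbb-b1 did not either, at 1.11, 1.19 and 1.10 against 0.855, 0.984 and 0.988. How often ratios of other genes fail to overlap was not tested.

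Adult globin transcripts had the highest mean levels of the 9 genes in Gdpd3+/+. Hba-a1 (ENSMUSG00000069919.6, mm9 chr11:32183511-32184465, plus strand, 3 exon blocks), an alpha globin chain gene, was at 1312, 953 and 773 FPKM in Gdpd3+/+ and at 350, 700 and 1171 FPKM in Gdpd3-/-. Hbb-b1 (ENSMUSG00000052305.5, mm9 chr7:110975048-110976610, minus strand, 3 exon blocks), an adult beta chain gene now named Hbb-bs, was at 1185, 801 and 703 FPKM in Gdpd3+/+ and at 410, 711 and 1184 FPKM in Gdpd3-/-. Both genes overlapped between groups, with Gdpd3+/+ replicate 1 and Gdpd3-/- replicate 7 close to each other at the top and Gdpd3-/- replicate 5 at the bottom. The spread among Gdpd3+/+ libraries was itself wide, with a mean of 1013 ± 274 FPKM for Hba-a1 and of 896 ± 255 FPKM for Hbb-b1 (SD, n = 3). The fitted log2 fold changes were -0.58 ± 0.44 and -0.32 ± 0.40 (SE; limma adjusted p = 0.466 and 0.633). Without replicate 5 that of Hba-a1 was -0.13 and that of Hbb-b1 turned to 0.07.

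Hba-a1 and Hbb-b1 each have a near-identical neighbour, and fragments were counted in hundredths, so the share given to each copy is uncertain. Hba-a2, the second alpha gene, was at 1135, 832 and 667 FPKM in Gdpd3+/+ and at 327, 617 and 1048 FPKM in Gdpd3-/-, and it followed Hba-a1 closely. The ratio of Hba-a1 to Hba-a2 was 1.156, 1.145 and 1.159 in Gdpd3+/+ and 1.069, 1.133 and 1.118 in Gdpd3-/-, a small difference without overlap. Hbb-b2, the other adult beta gene and now named Hbb-bt, was at 899, 650 and 610 FPKM in Gdpd3+/+. It was at 714, 756 and 1099 FPKM in Gdpd3-/-, without the low value in replicate 5 that Hbb-b1 had. The ratio of Hbb-b1 to Hbb-b2 was therefore 1.32, 1.23 and 1.15 in Gdpd3+/+ and 0.574, 0.941 and 1.08 in Gdpd3-/-, with no overlap (exact permutation p = 0.1).

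Alpha and beta chains were also set against each other within each library. The sum of Hba-a1 and Hba-a2 over the sum of Hbb-b1 and Hbb-b2 was 1.17, 1.23 and 1.10 in Gdpd3+/+ and 0.603, 0.898 and 0.971 in Gdpd3-/-. The groups did not overlap, and all Gdpd3-/- libraries were below 1, with replicate 5 farthest from the rest (exact permutation p = 0.1). The 4 adult globin genes together took 0.348, 0.248 and 0.211% of all fragments in Gdpd3+/+ and 0.136, 0.213 and 0.345% in Gdpd3-/- (exact permutation p = 0.6). Summed beta globin alone had close means, 1616 ± 411 FPKM in Gdpd3+/+ and 1624 ± 596 FPKM in Gdpd3-/-, while summed alpha globin was 1891 ± 512 and 1404 ± 774 FPKM (SD, n = 3 each).

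Embryonic globin genes were at or near the floor. Hbb-bh1, Hbb-bh2 and Hba-x had mean FPKM below 0.05 and were not tested. Hbb-y, an embryonic beta-like gene, was listed at 0 in 3 of the 6 libraries and reached 2.34 FPKM in Gdpd3-/- replicate 5. Hbq1b, a theta globin gene, lay between 1.73 and 3.09 FPKM in 5 libraries and at 0.00947 FPKM in Gdpd3-/- replicate 6. Its neighbour Hbq1a did not exceed 0.310 FPKM in any library. Of the 10 globin genes measured 7 passed the filter, 5 of them with a fold change below 0, and none was called (median log2 fold change -0.32 against 0.24 over all genes).

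**Figure D2:**
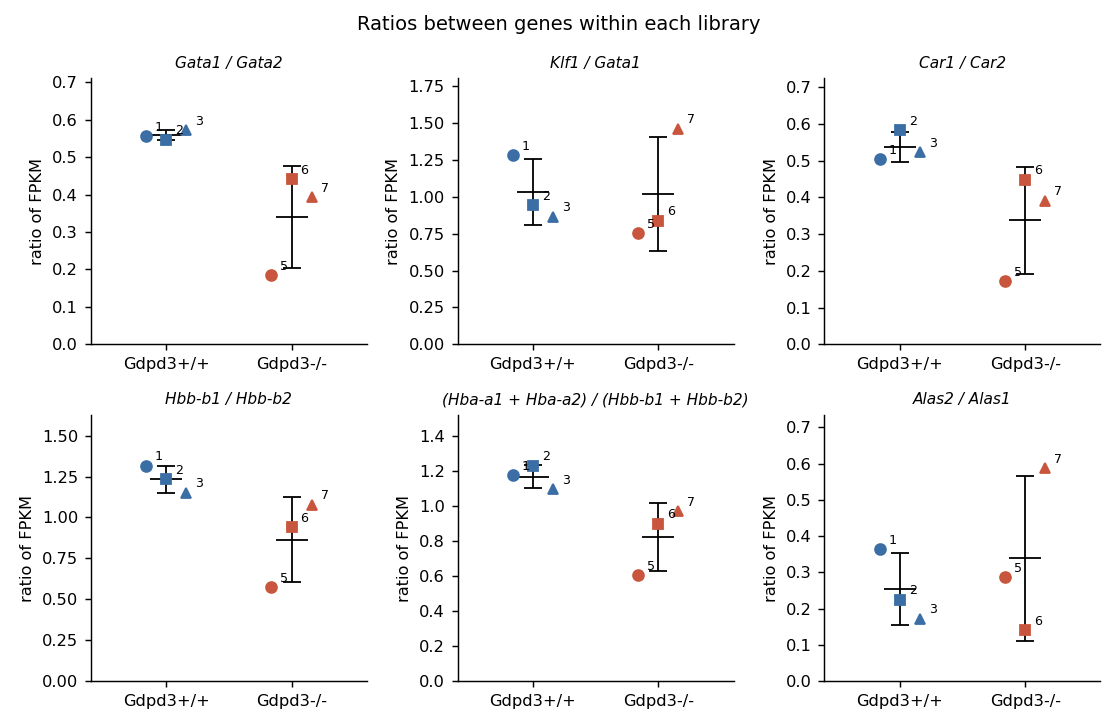
Ratios of FPKM between 2 genes, or 2 sums of genes, within each library (vertical axes, linear from 0), with the replicate number beside each point, Gdpd3+/+ in blue and Gdpd3-/- in red, and marks and bars for the mean and SD (n = 3). The red points lie below all blue points for Gata1 to Gata2, Car1 to Car2, Hbb-b1 to Hbb-b2 and alpha to beta globin, and the colours overlap for Klf1 to Gata1 and Alas2 to Alas1.

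Alas2 encodes the erythroid form of the first and rate-limiting enzyme of haem synthesis. Alas2 (ENSMUSG00000025270.7, mm9 chrX:146981918-147005181, plus strand, 11 exon blocks) was at 23.2, 15.9 and 12.3 FPKM in Gdpd3+/+ and at 5.71, 4.88 and 19.4 FPKM in Gdpd3-/-. Replicates 5 and 6 lay below all Gdpd3+/+ libraries and replicate 7 lay among them. The log2 fold change was -1.01 ± 0.54 (SE; 95% interval -2.29 to 0.27; limma adjusted p = 0.313). When Gdpd3-/- replicate 7 was left out it was -1.63 ± 0.29 with a limma adjusted p of 0.0270, the one call made for any of the 9 genes under any setting. In the same fit without replicate 7, 14.2% of all genes were called, so that a call was far more common there than with all 6 libraries.

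The other form of the enzyme, Alas1, which most tissues use, did pass the test. Alas1 was at 63.9, 70.8 and 71.9 FPKM in Gdpd3+/+ and at 19.9, 34.7 and 33.0 FPKM in Gdpd3-/-, and it fell by 1.27 on the log2 scale (SE 0.22; limma adjusted p = 0.0485). It lost the call without any one of the Gdpd3+/+ libraries (adjusted p from 0.230 to 0.247), with a pseudocount of 1 (0.0591), with no filter (0.0673) and with no intensity trend (0.123). Among the 15 haem synthesis and transport genes tested, Alas2 included, Alas1 was the 1 called. Of the 15, 10 had a fold change below 0 (34.9% of all genes tested did), and the median log2 fold change was -0.29. For 5 of these genes all Gdpd3-/- values were below all Gdpd3+/+ values, as for 8.27% of all genes tested. For 1 gene all were above, as for 23.5% of all genes tested. Fech, which inserts iron into the ring, was among the 5 (61.7, 54.5 and 54.3 against 26.1, 29.98 and 46.3 FPKM). So was Abcb10, a mitochondrial transporter (13.6, 17.4 and 16.6 against 5.62, 7.44 and 10.02 FPKM). Fech and Abcb10 were chosen after their values were seen, and neither passed the test (limma adjusted p = 0.106 and 0.0743).

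Among the 7 genes of haem breakdown and export, 1 was called, the haptoglobin gene Hp, whose product binds free haemoglobin and is also made by myeloid cells. Hp was at 195, 188 and 190 FPKM in Gdpd3+/+ and at 81.9, 78.6 and 82.3 FPKM in Gdpd3-/-, with a small spread in both groups. It fell by 1.24 on the log2 scale (SE 0.08; limma adjusted p = 0.00562). The call was lost without Gdpd3+/+ replicate 1 (adjusted p = 0.0705) or 2 (adjusted p = 0.0502). The median of the 7 genes was -0.31.

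Tfrc, which takes up transferrin-bound iron, had the tightest Gdpd3+/+ values. Tfrc (ENSMUSG00000022797.9, mm9 chr16:32609006-32632880, plus strand, 19 exon blocks) was at 23.8, 23.9 and 23.3 FPKM in Gdpd3+/+ and at 2.70, 18.6 and 16.7 FPKM in Gdpd3-/-. The 3 Gdpd3-/- values were all under the lowest Gdpd3+/+ value, and replicate 5 was at 11.4% of the Gdpd3+/+ mean, the lowest share for any of the 9 genes. The log2 fold change was -1.31 ± 0.70 (SE; 95% interval -2.98 to 0.35; limma adjusted p = 0.315; exact permutation p = 0.1). Without replicate 5 it was -0.42 with an adjusted p of 0.108.

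Among the 18 entries of the iron uptake and storage list 1 was called, Slc40a1, the iron exporter ferroportin. Trf was entered in this list under separate gene identifiers, each with a fold change above 0. Slc40a1 was at 27.9, 27.8 and 28.3 FPKM in Gdpd3+/+ and at 4.96, 6.80 and 10.2 FPKM in Gdpd3-/-, and it fell by 1.98 on the log2 scale (SE 0.25; limma adjusted p = 0.0275). Without any one of the Gdpd3+/+ libraries the adjusted p was 0.164 to 0.172, and with no intensity trend it was 0.0661. The ferritin heavy chain gene Fth1, named after its values were seen, was at 1207, 1185 and 1153 FPKM in Gdpd3+/+ and at 2252, 2553 and 1760 FPKM in Gdpd3-/- and did not pass the test (limma adjusted p = 0.0565). The list had 9 entries on each side of 0, against 34.9% of all genes tested below 0. Its median log2 fold change was 0.06, against 0.24 for all genes. After TMM scaling the median of the list was -0.15 and after quantile normalization -0.06, against 0.05 and -0.01 for all genes.

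Car1 and Car2 lie near each other on chromosome 3 and encode cytosolic carbonic anhydrases, both abundant in red cells. Car1 (ENSMUSG00000027556.8, mm9 chr3:14766217-14778459, minus strand, 7 exon blocks) was at 335, 384 and 324 FPKM in Gdpd3+/+ and at 124, 350 and 344 FPKM in Gdpd3-/-. Replicates 6 and 7 lay among the Gdpd3+/+ values and replicate 5 alone was low. The log2 fold change of -0.49 ± 0.40 (SE; limma adjusted p = 0.497) became 0.0014 without replicate 5, with a limma adjusted p of 0.995.

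Car2 (ENSMUSG00000027562.7, mm9 chr3:14886426-14900769, plus strand, 7 exon blocks) was at 664, 659 and 620 FPKM in Gdpd3+/+ and at 720, 780 and 881 FPKM in Gdpd3-/-. It was the single gene of the 9 for which replicate 5 was above the Gdpd3+/+ mean, at 111% of it. The log2 fold change was 0.29 ± 0.11 (SE; 95% interval 0.016 to 0.56; limma unadjusted p = 0.0410, adjusted p = 0.206), close to the median of all genes at 0.24. It stayed above 0 but was smaller after TMM scaling (0.08) and quantile normalization (0.16). The ratio of Car1 to Car2 within a library was 0.504, 0.583 and 0.523 in Gdpd3+/+ and 0.172, 0.448 and 0.391 in Gdpd3-/-, with no overlap between groups (exact permutation p = 0.1).

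The muscle gene Car3 lies between them at mm9 chr3:14863538-14872351. Car3 was at 14.9, 9.81 and 14.8 FPKM in Gdpd3+/+ and at 98.5, 173 and 25.4 FPKM in Gdpd3-/-, in the same order of Gdpd3-/- libraries as the summed muscle transcripts, a list that holds Car3 itself (limma adjusted p = 0.0953). None of the 16 carbonic anhydrase genes was called. Of the 16, 12 had a fold change above 0 and 4 below it, against 34.9% of all genes tested below 0. Their median was 0.61, against 0.24 for all genes. It was 0.49 after TMM scaling and 0.25 after quantile normalization, against 0.05 and -0.01 for all genes. Car4, Car5a, Car6, Car10 and Car15 were near the floor in Gdpd3+/+, with means of 0 to 0.17 FPKM. Car9 had the second lowest p of the list (log2 fold change 0.51, limma adjusted p = 0.154).

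Epb4.2 encodes protein 4.2, which links the anion exchanger band 3 to the ankyrin of the membrane skeleton. Epb4.2 (ENSMUSG00000023216.7, mm9 chr2:120843627-120862808, minus strand, 15 exon blocks) had the lowest level of the 9 genes, at 2.48, 1.96 and 1.97 FPKM in Gdpd3+/+ and at 0.320, 1.09 and 2.55 FPKM in Gdpd3-/-. The Gdpd3-/- libraries held both the lowest and the highest value, and replicate 5 had 37 fragments of this gene. The log2 fold change was -1.02 ± 0.65 (SE; limma adjusted p = 0.396) and -0.33 without replicate 5.

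The wider list of membrane and skeleton genes was measured with 22 entries, Epb4.2 among them. None was called, 16 had a fold change below 0 (34.9% of all genes tested did), and the median log2 fold change was -0.42. Of the 22 entries, 18 were at their lowest in Gdpd3-/- replicate 5, against 16.5% of all genes tested. Gypc was entered under separate gene identifiers, and each of these entries was among the 18. The anion exchanger gene Slc4a1 was at 11.9, 10.1 and 8.33 FPKM in Gdpd3+/+ and at 1.48, 3.09 and 7.15 FPKM in Gdpd3-/- (log2 fold change -1.61, limma adjusted p = 0.144). The urea transporter gene Slc14a1 had the lowest p of the list (log2 fold change -0.52, limma adjusted p = 0.0958). Without replicate 5 the median of the list was -0.14.

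**Figure D3:**
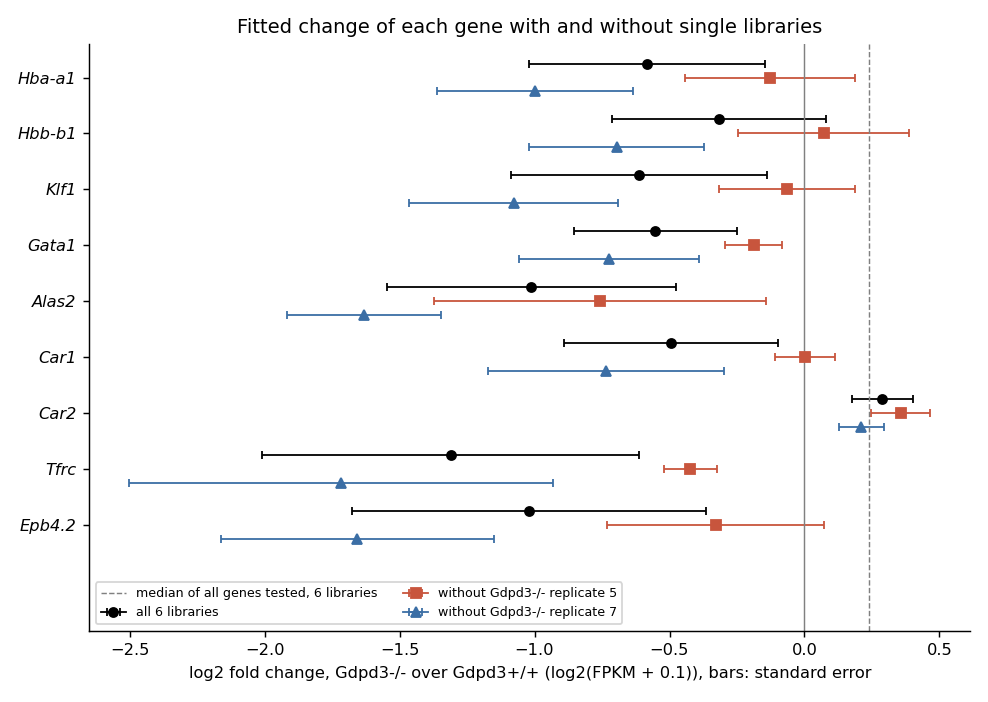
Fitted log2 fold change of each erythroid gene (horizontal axis, Gdpd3-/- over Gdpd3+/+ on the log2(FPKM + 0.1) scale) with all 6 libraries (black), without Gdpd3-/- replicate 5 (red) and without Gdpd3-/- replicate 7 (blue); bars are standard errors, the solid line is 0 and the dashed line the median of all genes tested (0.24). Leaving out replicate 5 moves 8 of the 9 genes towards or past 0, leaving out replicate 7 moves the same genes away from it, and Car2 changes little.

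In Gdpd3+/+ the order of levels per length was Hba-a1, Hbb-b1, Car2, Car1, Klf1, Gata1, Tfrc, Alas2 and Epb4.2. Of the neighbours in this order, Hba-a1 overlapped with Hbb-b1 and Klf1 with Gata1 in their library values. The other neighbours did not overlap, narrowly so for Tfrc, which lay just under Klf1 and Gata1 and just over Alas2. In Gdpd3-/- Car2 had the highest mean, 794 ± 81.3 FPKM, against 740 ± 412 for Hba-a1 and 768 ± 391 for Hbb-b1 (SD, n = 3), and these ranges overlapped.

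For each of the 9 genes the range of the 3 Gdpd3-/- libraries was wider than the difference between the group means. In replicate 5, 8 of the 9 genes were between 11.4 and 45.7% of the Gdpd3+/+ mean, and Tfrc and Epb4.2, the longest of the 9 genes, had the smallest shares (11.4 and 15.0%). In replicate 6 the genes were between 28.5% (Alas2) and 120% (Car2) of the Gdpd3+/+ mean. In replicate 7 they were between 70.6% (Tfrc) and 136% (Car2), and 6 of the 9 were above the mean. Replicate 5 was the lowest of the 6 libraries for 7 of the 9 genes, which is the case for 16.5% of all genes tested. In bulk libraries, fewer cells that express a gene and less RNA of it per cell cannot be told apart.

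Gene length moved with the level in replicates 5 and 6. The median log2 ratio to the Gdpd3+/+ mean was 0.40 in replicate 5, 0.37 in replicate 6 and 0.25 in replicate 7 for genes under 1500 bases, and 0.0004, -0.08 and 0.13 for genes of 5000 to 7500 bases. Tfrc has 6185 and Epb4.2 has 5417 bases of exon, while Hba-a1 has 812 and Hbb-b1 has 863, and both short and long erythroid genes were low in replicate 5. The part of length in these results was not tested.

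Markers of other cells also moved with the libraries. Transcripts of eosinophils, basophils and mast cells, as 1 list, summed to 3005 to 3843 FPKM in Gdpd3+/+. Their sum was 1235, 2015 and 2504 FPKM in Gdpd3-/- replicates 5, 6 and 7. The largest part was the eosinophil gene Prg2 (1851, 1628 and 2016 against 320, 806 and 1073 FPKM). Cma1, Cpa3, Tpsb2 and Fcer1a, genes of mast cells and basophils, were instead highest in replicate 5. Mcpt8 was highest in replicate 7, and Ms4a2 was lowest in replicate 5. In the list 8 genes were lower in every Gdpd3-/- library and 4 were higher (8.27 and 23.5% of all genes tested). Of the 14 genes of this list tested 9 had a fold change below 0 (34.9% of all genes tested did). The 1 called was the mast cell protease gene Cpa3, which was higher in Gdpd3-/- (log2 fold change 1.86, limma adjusted p = 0.0483). Cpa3 lost its call without any one library other than Gdpd3-/- replicate 7 (0.0686 to 0.221). Cpa3 lost it too under TMM scaling, quantile normalization, a pseudocount of 1, no filter, no intensity trend and array weights (0.0591 to 0.222). Megakaryocyte markers, the closest relatives of the erythroid genes, summed to 380 to 480 FPKM in Gdpd3+/+ and to 366, 680 and 391 FPKM in Gdpd3-/-. None of the 11 tested was called, and Gp6 was the one marker of any list at 0 in all libraries. Gp5, a platelet glycoprotein gene, had the lowest p (log2 fold change -0.45, limma adjusted p = 0.150).

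Macrophage markers, which include genes of the macrophages that nurse erythroblasts in marrow, summed to 40.6 to 52.2 FPKM in Gdpd3+/+ and to 28.7 to 44.4 FPKM in Gdpd3-/-. The lower sums rested on Vcam1. Of the 12 tested, 6 had a fold change on each side of 0, against 34.9% of all genes tested below 0. Their median log2 fold change was 0.01, against 0.24 for all genes. One of the 12 was called, Vcam1, at 19.7, 14.5 and 20.01 FPKM in Gdpd3+/+ and at 2.83, 1.08 and 4.62 FPKM in Gdpd3-/- (log2 fold change -2.82, limma adjusted p = 0.0487). Vcam1 lost its call without any one of the Gdpd3+/+ libraries (0.212 to 0.247) or Gdpd3-/- replicate 5 (0.0897), and under a pseudocount of 1, no filter, quantile normalization or no intensity trend (0.0506 to 0.110). Among the genes listed as stem cell markers 1 was called, Cd34, whose protein was not used in the sort. Cd34 rose by 0.88 on the log2 scale (111, 111 and 105 against 187, 195 and 221 FPKM, limma adjusted p = 0.0204). Without any one of the Gdpd3+/+ libraries the adjusted p was 0.148 to 0.158. For Cd34 it was 0.0665 after quantile normalization and 0.0926 with no intensity trend. All 15 muscle genes were higher in every Gdpd3-/- library than in every Gdpd3+/+ library, which held for 23.5% of all genes tested, with a median log2 fold change of 2.85, and none was called; Pvalb and Actn3 had the lowest p (limma adjusted p = 0.0802 and 0.0821). The unadjusted p was under 0.05 for all 15. The part of other cell types in the erythroid results was not tested.

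The median of the erythroid transcription factor list did not follow Klf1 and Gata1. Of 17 tested, 11 had a fold change above 0. Of the 17, 9 were higher in every Gdpd3-/- than in every Gdpd3+/+ library (23.5% of all genes tested were). Another 3, Gata1 among them, were lower in every Gdpd3-/- library (8.27% of all genes tested were). The median log2 fold change was 0.26, close to that of all genes (0.05 after TMM scaling and 0.12 after quantile normalization, against 0.05 and -0.01 for all genes). The 1 called was Cbfa2t3, a corepressor found in complexes with Gata1 and Tal1. Cbfa2t3 was at 7.70, 8.58 and 8.20 FPKM in Gdpd3+/+ and at 15.5, 13.8 and 15.6 FPKM in Gdpd3-/-, and it rose by 0.87 on the log2 scale (SE 0.12; limma adjusted p = 0.0334). After TMM scaling it missed the threshold (adjusted p = 0.0573), as it did without Gdpd3-/- replicate 5 (0.0642) or any one of the Gdpd3+/+ libraries (0.188 to 0.209), with no intensity trend (0.0928) or with array weights (0.0546).

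Genes of erythropoietin signalling and of late red cell remodelling gave no call. Over all genes tested 34.9% had a fold change below 0 and the median was 0.24. Of the 13 signalling genes 6 had a fold change below 0 and the median was 0.08. Socs3, a feedback inhibitor of cytokine receptors, and Bcl2l1, a survival gene, had the lowest p (log2 fold change 0.89 and -0.72, limma adjusted p = 0.145 and 0.191). The erythropoietin receptor gene Epor (14.4, 17.8 and 14.7 against 14.0, 7.30 and 13.8 FPKM) and its kinase gene Jak2 (25.2, 24.1 and 24.8 against 5.96, 17.3 and 20.4 FPKM) were named after their values were seen. They had lower values in all Gdpd3-/- libraries and did not pass the test (limma adjusted p = 0.352 and 0.261). Of the 13 signalling genes 3 were lower in every Gdpd3-/- library and 2, Socs3 among them, were higher. Over all genes tested these shares were 8.27 and 23.5%. Of the 14 remodelling genes 8 were below 0 and the median was -0.01, with Ube2l6 and Trim10 at the lowest p (log2 fold change 0.32 and -0.75, limma adjusted p = 0.143 and 0.158).

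**Figure D4:**
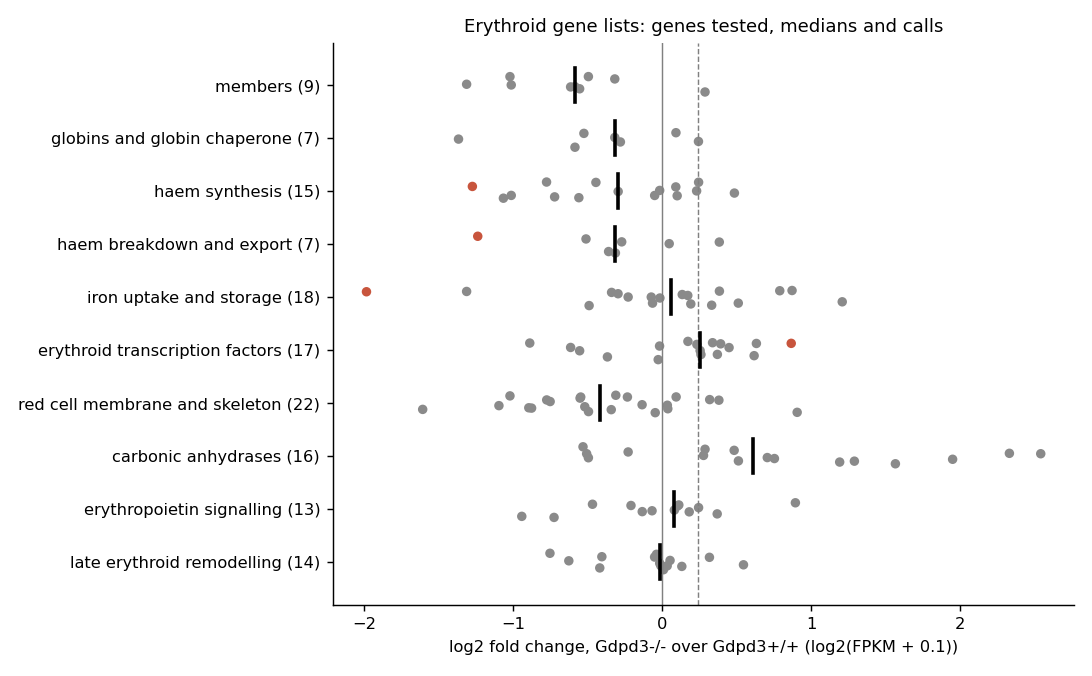
Log2 fold change (horizontal axis, Gdpd3-/- over Gdpd3+/+ on the log2(FPKM + 0.1) scale) of each gene tested in the 9 erythroid genes and 9 erythroid lists, with the number of genes tested in parentheses; points are genes, red where the limma adjusted p is under 0.05, black bars are list medians, the solid line is 0 and the dashed line the median of all genes (0.24). The medians run from -0.58 for the 9 genes to 0.61 for the carbonic anhydrases, and the 4 red points are Alas1, Hp, Slc40a1 and Cbfa2t3. Gypc and Trf have a point for each of their gene identifiers.

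The genes whose pattern over the 6 libraries was most like that of a given erythroid gene were found by Pearson's r of log2(FPKM + 0.1) among 15103 genes with a mean of at least 1 FPKM. These correlations share the same 6 libraries and their depth, and are descriptions. Hba-a1 was most like Hba-a2 (r = 0.999), Zfp191 (0.988), Cd163 (0.987), 4930550G17Rik (0.984) and Gm17635 (0.983), with Hbb-b1 and Klf1 at ranks 8 and 10 (both 0.979). Gata1 was most like Fut1 (0.997), Elmo1 (0.994), Cdkn2aip (0.994), Mtbp (0.993) and Las1l (0.993), with Tfrc at rank 13 (0.990) and Car1 at rank 76 (0.973). Car1 was most like Entpd6 (0.999), Psmd2 (0.998), Gm9791 (0.997), S100a5 (0.997) and Ssrp1 (0.996).

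The 9 genes thus showed more than 1 pattern over the libraries. Hba-a1, Hbb-b1, Klf1 and Epb4.2 were high in Gdpd3+/+ replicate 1 and Gdpd3-/- replicate 7, whereas Gata1, Tfrc and Car1 were nearly level in Gdpd3+/+ and low in Gdpd3-/- replicate 5. Car2 was unlike the other 8, with r from -0.21 to 0.22. Its closest genes were Niacr1 (0.996), Tcf7 (0.995), Psmg3 (0.991), Enox (0.991) and Trim17 (0.989).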

How the data were processed

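LT-CML stem cells were sorted, and libraries were made from total RNA with the SMART-Seq v4 and Nextera XT kits and sequenced as paired-end reads of 150 bases. The submitters' processing notes list Trimmomatic, Trim Galore, cutadapt 1.16, STAR 2.6.1a, featureCounts 1.6.1, DESeq2 and the mm9 build. The authors deposited FPKM values for 36976 genes, used here as they stand. Their DESeq2 table (base mean, fold change, standard error, test statistic and p-values of their own comparison) was not used.

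In all libraries, FPKM times gene length came to multiples of a hundredth of 1 fragment (100% of values, within 0.05 hundredths), and 47.2 to 55.2% were whole fragments. The total gave the depth, 21334716 to 62762437 fragments per library. Whether 1 unit is a read or a read pair is not given in the sources used here, and without molecular identifiers fragments are not molecules.

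Genes whose FPKM averaged 0.05 or more (24689 genes) were put on the log2(FPKM + 0.1) scale and compared by limma 3.58.1 in R 4.3.3, with a variance trend on intensity and no term but genotype. Adjustment was by Benjamini-Hochberg across this whole set. A gene was called at an adjusted p under 0.05. Fold changes on this scale understate those of low genes. Single values and ratios were compared by exact two-sided permutation tests (SciPy 1.17.1; 20 assignments, smallest p 0.1). The fit was tested on simulated data.

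The 9 genes and the lists were chosen with earlier results of these data known. Named were the 9 genes, every globin gene, and in each list the genes called or, with none, the 2 with the lowest p; exceptions are marked, and 1 gene that this rule names is not reported here. Alternatives were another pseudocount or filter, TMM or quantile scaling, no trend, array weights, leaving out each library and, added after seeing the data, voom on recovered fragments. Gene positions are those of the deposited table (mm9), current symbols come from GENCODE M21, and promoters are RefSeq (GRCm38.p6). Protein sequences were not used here.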

Additional observations from a re-analysis of the deposited data

How the results depend on the processing

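With all 6 libraries 0 of the 9 erythroid genes were called by limma, and 0 were called under every alternative except without Gdpd3-/- replicate 7, so the range over the fits that leave out 1 library was 0 to 1. The 1 call was Alas2 (log2 fold change -1.63). Of the single-gene fold changes 132 kept their direction and their side of the threshold, and 2 changed sign, both without Gdpd3-/- replicate 5, that of Car1 to 0.0014 and that of Hbb-b1 to 0.071. Over the fits without 1 library the log2 fold change ran from -0.998 to -0.13 for Hba-a1, from -0.70 to 0.07 for Hbb-b1, from -0.75 to 0.00 for Car1 and from -1.63 to -0.65 for Alas2. The 422 calls over all genes became 225 with a pseudocount of 1, 213 with no filter, 673 with a mean FPKM of at least 1, 153 with no intensity trend, 240 with array weights and 906 by voom on recovered fragments, and they ran from 0 to 3413 when 1 library was left out, the 3413 being without Gdpd3-/- replicate 7 and the 0 without Gdpd3+/+ replicate 1. The cause was not tested. TMM scaling turned the split of calls from 270 higher and 152 lower to 118 higher and 252 lower, and quantile normalization to 119 and 206. The 4 calls in the erythroid lists became 1 with no intensity trend and ran from 0 to 20 when 1 library was left out, 20 being without Gdpd3-/- replicate 7. Of all genes tested 1.71% were called with all 6 libraries and 14.2% without Gdpd3-/- replicate 7. The 20 calls are thus to be read beside a far larger share of calls over all genes. For the other genes called, a call was lost in 43 of 105 alternative fits, with no change of sign. No paired analysis was made because the sources used here describe no pairing between libraries of the groups. Depth limits the lowest values most, such as Epb4.2 in Gdpd3-/- replicate 5.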
